A study of Mus musculus with 8 samples.

Results

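The segments of the T-cell receptor (TCR) β chain were taken as all genes whose symbol starts with Trbv, Trbd, Trbj or Trbc followed by a number. There were 53 such segments among the 47493 genes of the table: 35 variable (V) segments, 2 diversity (D) segments, 14 joining (J) segments and 2 constant (C) regions. The share of a segment was its FPKM (fragments normalized to transcript length and library depth) as a percentage of the summed FPKM of its class in the same library. The segments were picked by symbol and not by their values, although the choice was made with earlier results of these data known. Shares and levels were compared between the cell fractions.

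The samples were endogenous CD8+ T cells (en-T cells) from 4 female C57BL/6 mice aged 6 to 8 weeks. All mice had received B16-F10 melanoma cells intradermally (200000 on day 0), cyclophosphamide (300 mg/kg on day 3), Thy1.1+ Pmel-1 T cells, which carry a transgenic TCR against a gp100 peptide (2000000 on day 5), recombinant human IL-2 (10000 IU daily for 3 days from day 5) and anti-CD4 antibody of clone GK1.5 (200 μg weekly for 3 weeks from day 10). On day 25, Thy1.1-negative CD8+ T cells of the spleen and inguinal lymph nodes were split on a magnetic column by an antibody against IL-18Rα, the α chain of the interleukin-18 receptor. The retained cells formed the IL-18Rα hi-enriched fraction and the cells that passed through formed the flow-through fraction, with 4 libraries of each. Libraries with the same number were taken as the fractions of the same mouse, which the labels do not state. Every library therefore came from treated, tumor-bearing mice, and the Thy1.1+ transferred cells were meant to be absent from both fractions. Il18r1, which encodes IL-18Rα, was between 22.2 and 37.2 FPKM in flow-through libraries, and it was between 107 and 116 FPKM in the enriched libraries, so the labels matched the selection.

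A TCR β chain gene is assembled in the developing thymocyte by recombination. A D segment is first joined to a J segment, and a V segment is then joined to the DJ unit, while the C region is added by splicing of the transcript. The V segment encodes most of the variable domain and its first and second antigen-contact loops, and the third loop (CDR3) spans the V-D-J junction. The Trbv shares of RNA from a T-cell population therefore describe which V segments its expressed β chains use, with each cell weighted by its amount of β chain RNA. In bulk RNA, fewer cells using a segment and less RNA per cell cannot be told apart.

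The locus lies on chromosome 6 of mm10, where Trbd1 is at chr6:41533201-41533212 and Trbd2 at chr6:41542163-41542176, both on the forward strand. The D segments are shown because their length bears on what could be measured:
Trbd1: GGGACAGGGGGC
Trbd2: GGGACTGGGGGGGC

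A J segment of each cluster is given for the same reason. Capitals mark the Phe-Gly-X-Gly codons that close the CDR3, except the last base of the final codon. Trbj1-1 is at chr6:41533864-41533911 and Trbj2-7 at chr6:41543810-41543856.
Trbj1-1: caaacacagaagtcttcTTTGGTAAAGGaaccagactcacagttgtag
Trbj2-7: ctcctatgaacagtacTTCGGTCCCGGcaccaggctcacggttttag

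The last 60 bases of the V segments that had a mean share of at least 1% and differed in the same direction in all 4 mice follow, with the codon of the cysteine that opens the CDR3 in capitals. The first 3 had the higher share in the enriched fraction, and the other 4 had the lower share. Trbv12-1 stands last as the nearest relative of Trbv12-2.
Trbv1: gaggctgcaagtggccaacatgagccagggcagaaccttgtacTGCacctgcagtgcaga
Trbv5: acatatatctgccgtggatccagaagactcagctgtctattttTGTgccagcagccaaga
Trbv31: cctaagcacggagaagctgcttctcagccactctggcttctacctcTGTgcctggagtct
Trbv12-2: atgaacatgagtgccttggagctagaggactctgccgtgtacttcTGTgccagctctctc
Trbv29: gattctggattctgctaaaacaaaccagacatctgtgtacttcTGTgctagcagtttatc
Trbv26: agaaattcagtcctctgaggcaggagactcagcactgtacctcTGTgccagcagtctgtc
Trbv15: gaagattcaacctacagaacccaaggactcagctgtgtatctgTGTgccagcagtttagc
Trbv12-1: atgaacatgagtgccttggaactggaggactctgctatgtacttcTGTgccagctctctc

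These V segments are annotated at chr6:40891229-40891885 (Trbv1), chr6:41062332-41062803 (Trbv5), chr6:41557691-41558452 (Trbv31, on the reverse strand and downstream of the C regions), chr6:41118851-41119364 (Trbv12-2), chr6:41271394-41271881 (Trbv29), chr6:41227505-41227993 (Trbv26), chr6:41141188-41141658 (Trbv15) and chr6:41113550-41114067 (Trbv12-1). The ends of Trbv12-1 and Trbv12-2 differed at 4 of 60 bases, and 0 of these were in or after the cysteine codon. Among 231 pairs of Trbv segments not annotated as pseudogenes, 4 pairs were at least 80% identical over the transcript, and 0 pairs had an identical run of 100 bases or more, which is shorter than a 150-base read. The closest pair was Trbv13-2 and Trbv13-3 (90.6% identical). Trbc1 and Trbc2 were 88.2% identical, with an identical run of 259 bases, so the split of fragments between the 2 constant regions was uncertain.

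Of the 4 classes, V and C segments gave values and D and J segments gave none. Both D segments (12 and 14 bases) and all 14 J segments (46 to 54 bases) were listed at 0 FPKM in all 8 libraries. With 150-base reads these exons are shorter than a read, and a value of 0 says nothing of J segment use. The comparison of Trbj shares could not be made. Of the 35 Trbv segments, 22 were annotated as V genes and 13 as V pseudogenes. Values above 0 in every library were found for 22 segments, 9 segments (all pseudogenes) were at 0 throughout, and 4 segments were above 0 in some libraries.

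Usage was spread over many V segments in both fractions. There were 19 Trbv segments with a mean share of at least 1% over the 8 libraries, and they held 98.9% of the Trbv sum on average. Trbv2 had the lowest mean share among them (1.72%) and the highest mean share outside them was 0.364%. In the flow-through fraction, Trbv16 (8.10% ± 1.05, SD, n = 4), Trbv29 (7.70% ± 0.631) and Trbv13-1 (7.51% ± 0.729) came first, and the neighbours in this order did not differ beyond their SD. In the enriched fraction, Trbv1 (9.40% ± 1.23) came first, followed by Trbv13-1 (8.06% ± 2.13) and Trbv14 (7.68% ± 1.49), again with overlapping libraries. Trbv1 had been at position 6 in the flow-through fraction, and Trbv16 was at position 5 in the enriched fraction. With FPKM weighted by exonic length, Trbv1 was at position 2 (7.24%) in the flow-through and at position 1 (10.04%) in the enriched fraction, where Trbv3 was at position 3.

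**Figure D1:**
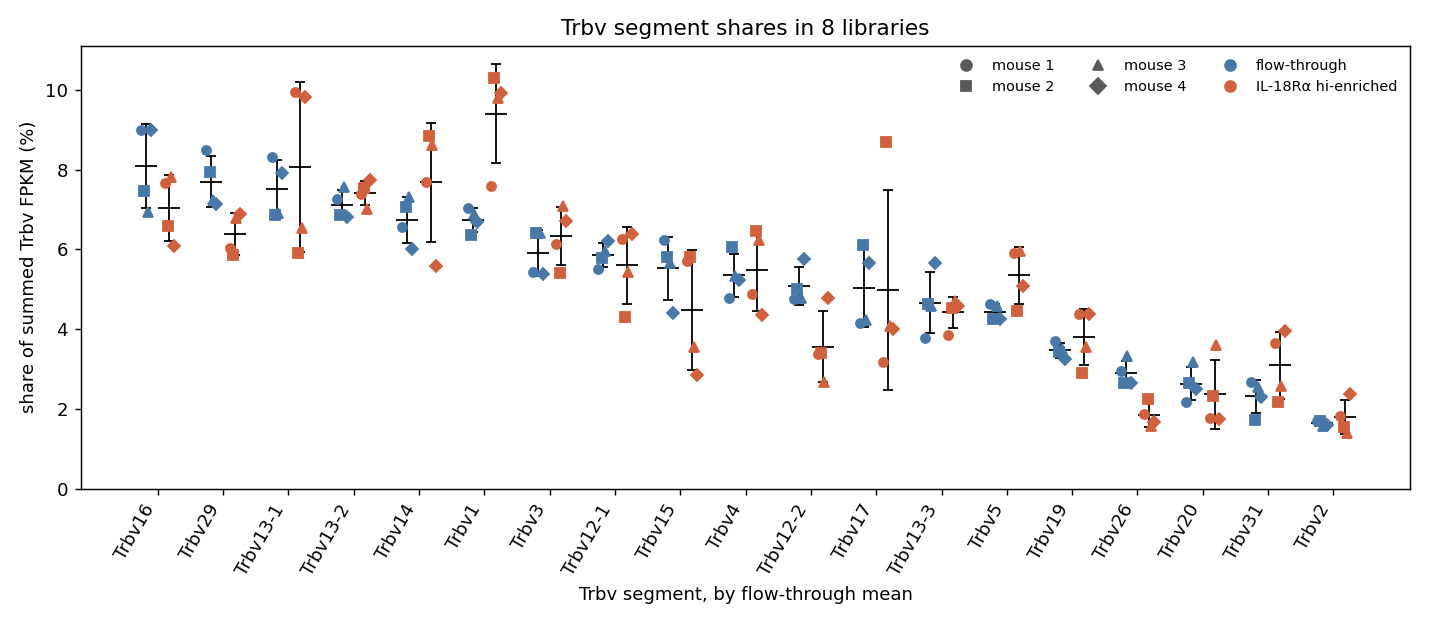
Share of the summed Trbv FPKM (%) of the 19 Trbv segments with a mean share of at least 1%, ordered by their flow-through mean. Each point is 1 library, the marker shape gives the mouse, and black marks give the mean and SD of 4 libraries. The enriched libraries of Trbv1 (7.58% to 10.3%) lie above its flow-through libraries (6.36% to 7.03%), while those of Trbv29 and Trbv26 lie below.

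Next, the share of each segment was compared between the fractions of the same mouse. Among the 19 segments, the share was higher in the enriched fraction of all 4 mice for 3 segments (Trbv1, Trbv5 and Trbv31), lower in all 4 mice for 4 segments (Trbv12-2, Trbv29, Trbv26 and Trbv15), and mixed over the mice for 12 segments. The 3 segments together held 13.5% ± 0.887 of the flow-through sum and 17.8% ± 0.978 of the enriched sum, and the 4 segments together held 21.2% ± 1.02 and 16.3% ± 1.22. These sums describe segments that were chosen for their direction.

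Trbv1 had the largest mean difference of any segment, and Trbv1 is one of the V segments that invariant natural killer T (NKT) cells can use. Its share was 7.03%, 6.36%, 6.88% and 6.68% in flow-through libraries 1 to 4, and the enriched libraries in the same order gave 7.58%, 10.3%, 9.80% and 9.93%. The fractions did not overlap. The difference was 0.557 percentage points in mouse 1 and 3.94, 2.92 and 3.25 points in mice 2, 3 and 4, so mouse 1 contributed least.

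Trbv5 had shares of 4.64%, 4.25%, 4.57% and 4.25% in the flow-through libraries, against 5.90%, 4.45%, 5.96% and 5.09% in the enriched libraries. Enriched library 2 fell within the flow-through range. Trbv31, the V segment that lies downstream of the C regions in inverted orientation, had shares of 2.66%, 1.73%, 2.55% and 2.31% against 3.65%, 2.18%, 2.57% and 3.96%. Its difference ranged from 0.012 percentage points in mouse 3 to 1.65 points in mouse 4, and the fractions overlapped. With FPKM weighted by exonic length, the share of Trbv31 was higher in 3 of 4 mice, with mouse 3 at 2.752% and 2.750%.

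Trbv12-2 had the largest mean decrease in share. It was at 4.76%, 5.01%, 4.78% and 5.77% in flow-through and 3.38%, 3.41%, 2.67% and 4.79% in enriched libraries, and only enriched library 4 reached the flow-through range. Its relative Trbv12-1 was at 5.86% ± 0.298 and 5.60% ± 0.962 and was higher in 2 mice and lower in 2 mice.

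The share of Trbv29, another V segment used by invariant NKT cells, was 8.48%, 7.94%, 7.24% and 7.14% in flow-through and 6.02%, 5.86%, 6.80% and 6.90% in enriched libraries, without overlap. Trbv26 was at 2.95%, 2.66%, 3.32% and 2.65% against 1.88%, 2.25%, 1.58% and 1.68%, also without overlap. Trbv15 was at 6.22%, 5.81%, 5.66% and 4.40% against 5.70%, 5.80%, 3.54% and 2.86%, and the decrease in mouse 2 was only 0.013 percentage points. All libraries of Trbv29 and Trbv26 thus separated by fraction, whereas those of Trbv15 and Trbv12-2 did not.

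**Figure D2:**
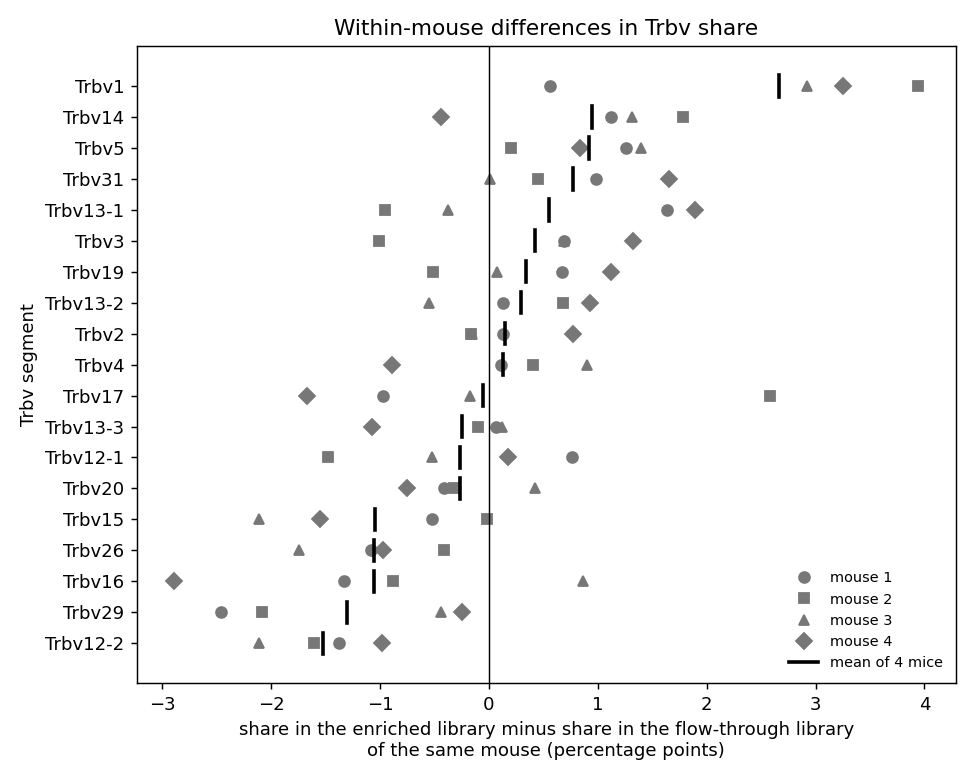
Share in the enriched library minus share in the flow-through library of the same mouse (percentage points) for the 19 Trbv segments, ordered by the mean of 4 mice (black bar). Each point is 1 mouse; all 4 points lie right of 0 for Trbv1, Trbv5 and Trbv31 and left of 0 for Trbv12-2, Trbv29, Trbv26 and Trbv15.

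To test the shares, each library was scaled to the same Trbv sum and limma was fitted to all genes of the scaled table. There were 23 Trbv segments among the 12236 genes tested. Trbv26 had a lower share in the enriched fraction (log2 difference -0.64, SE 0.19, adjusted p = 0.0359 by limma, lower in 4 of 4 mice) and was the 1 segment of at least 1% share that passed. Its unadjusted p by limma was 0.00566. The adjustment ran over all genes of the scaled table, so the adjusted p depends on genes outside the Trbv class. An adjustment over the Trbv segments alone was not made. The rarely used Trbv21 was also called (-1.07, SE 0.33, adjusted p = 0.0418), but its mean reached the filter of 1 FPKM only through the fraction in which it was higher, so the call is given for completeness. No Trbv segment had a higher share at this threshold (0 of 23 by limma, with 1 segment, Trbv1, at an unadjusted p under 0.05). Across all genes of the scaled table, 3.49% were called higher and 20.1% were called lower. Their median log2 difference was -0.46, against -0.02 as deposited, so the scaling itself moved this background down. The Trbv segments called lower (2 of 23, or 1 of 22 without Trbv21) were below it. Trbv1 missed the threshold (0.47, SE 0.18, adjusted p = 0.0678), as did Trbv12-2 (-0.53, SE 0.21, adjusted p = 0.0750). Adjusted p-values of Trbv31, Trbv29, Trbv5 and Trbv15 were between 0.203 and 0.268.

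These calls depended on single libraries. Trbv26 stayed under the threshold in 6 of 15 alternatives, with adjusted p from 0.0122 to 0.116, and the call was lost without flow-through 3 (0.108), without flow-through 4 (0.0542) or without any of the 4 enriched libraries (0.0676 to 0.116). With the mouse as a replicate block, Trbv26 was at 0.0552 and the pseudogene Trbv24 was called lower (adjusted p = 0.0194 by limma). That fit called 30.9% of all genes lower. It also gave segments of unlike spread nearly the same SE. Trbv13-2 and Trbv17 had SEs of 0.16 and 0.30 in the main fit, and of 0.26 and 0.27 with the block. Share p-values with the block therefore do not measure a segment's own spread within mice. The share of Trbv24 was lower in 3 of 4 mice, most in mouse 2 (difference of -0.502 percentage points), and its fractions overlapped. Without flow-through 1, the library with the lowest Trbv sum, Trbv1 (0.49, adjusted p = 0.0181) was called higher and Trbv12-2 (-0.56, adjusted p = 0.0350) lower.

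Scaling to the Trbv sum also changed the spread that limma works with. The median residual SD of log2 values over all genes was 0.189 as deposited and 0.333 after scaling, while that of the 19 Trbv segments fell from 0.364 to 0.203. The residual SD of Trbv1 itself was 0.149, and limma used 0.251 for it. For a test that uses the values of 1 segment alone, the difference in share was permuted over the 70 arrangements of 4 libraries against 4. The exact two-sided permutation p was 0.0286 for Trbv1, Trbv29 and Trbv26, which is the smallest that this design allows, and 0.0857 for both Trbv5 and Trbv12-2. This permutation does not use the pairing by mouse. The paired exact sign-flip test cannot go below 0.125 with 4 mice, and it gave 0.125 for Trbv1, Trbv29 and Trbv26. It gives this p for any segment with the same direction in every mouse. There were 19 such tests, of which 3 were under 0.05, and these p-values are unadjusted and were added after the values had been seen. Fractions that did not overlap were seen in 1 of 19 segments upward and 2 of 19 downward, against 4.39% and 37.5% of all genes in the scaled table. Hence the share of segments that separated was near the background upward and below it downward. The scaling lowered the other genes (median log2 difference -0.46 over all genes, against -0.08 for the 23 Trbv segments). A downward count below this background therefore says nothing of Trbv use.

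None of the V segments named here for the transferred cells, invariant NKT cells or MAIT cells passed the main limma test of shares. Of those described above, Trbv1 was at an adjusted p of 0.0678 (higher share) and Trbv29 at 0.217 (lower share). Trbv14 encodes the β chain V region of the Pmel-1 receptor, which the transferred cells carried. Its share was 6.56%, 7.06%, 7.31% and 6.02% in flow-through and 7.68%, 8.85%, 8.63% and 5.58% in enriched libraries. It was higher in mice 1, 2 and 3 and lower in mouse 4, with an adjusted p of 0.488 by limma, and the transgenic and endogenous uses of the segment cannot be told apart in these values.

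The Trbv13 segments are used by many invariant NKT and mucosal-associated invariant T (MAIT) cells. Trbv13-1 was at 8.32%, 6.86%, 6.92% and 7.92% in flow-through and 9.96%, 5.91%, 6.54% and 9.81% in enriched libraries, which split into a high pair (mice 1 and 4) and a low pair (mice 2 and 3). Trbv13-2 was at 7.26%, 6.86%, 7.56% and 6.80% against 7.39%, 7.54%, 7.01% and 7.73%. Trbv13-3 was at 3.78%, 4.64%, 4.58% and 5.66% against 3.85%, 4.54%, 4.70% and 4.58%. The 3 segments summed to 19.3% ± 0.841 in the flow-through fraction and 19.9% ± 2.08 in the enriched fraction, higher in 2 of 4 mice. The share of Trbv19, a V segment of MAIT cells, was 3.70%, 3.42%, 3.49% and 3.25% against 4.38%, 2.91%, 3.56% and 4.37%. Adjusted p-values of these 4 segments lay between 0.630 and 0.806.

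Of the other segments with a share of at least 1%, Trbv16 had a mean difference of -1.06 percentage points, and it was lower in mice 1, 2 and 4 and higher in mouse 3. The shares of Trbv2, Trbv3, Trbv4, Trbv17 and Trbv20 differed by -0.264 to 0.423 points on average, with the mice divided in direction. Trbv17 in enriched library 2 reached 8.69%, against 3.18% to 4.07% in the other enriched libraries.

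Low segments were few and sparse. Trbv23 (0.431% ± 0.090 and 0.297% ± 0.135), Trbv30 (0.325% ± 0.156 and 0.300% ± 0.155) and the pseudogene Trbv24 (0.424% ± 0.175 and 0.250% ± 0.166) were above 0 in every library. Trbv21 was at 1.35, 0.644, 3.09 and 0.754 FPKM in flow-through and 0.646, 0.658, 0 and 0 FPKM in enriched libraries. It passed the filter on low values only in the scaled table and only through its flow-through values. Its call was lost without any of the 4 enriched libraries, and without flow-through 1 or flow-through 3 it was not tested. Trbv21 and Trbv23 were also lower in share in 4 of 4 mice. The pseudogenes Trbv8, Trbv22 and Trbv10 were above 0 in 4, 3 and 1 of 8 libraries. All pseudogenes together held 0.445% ± 0.189 of the flow-through sum and 0.312% ± 0.107 of the enriched sum.

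The levels of the segments, which also carry the amount of TCR RNA in a library, were then compared as deposited. Trbv1, Trbv5 and Trbv31 rose in the enriched fraction, and 0 of 22 Trbv segments tested fell (none at an unadjusted p under 0.05 either, by limma). Trbv1 was at 63.6, 114, 100.3 and 108 FPKM in flow-through and 157, 202, 196 and 179 FPKM in enriched libraries (log2 difference 0.95, SE 0.18, adjusted p = 0.00725). Every enriched library of Trbv1 was above every flow-through library, and the same held for 1993 of the 12166 genes tested as deposited. Trbv5 averaged 63.3 ± 14.9 and 105 ± 18.2 FPKM (0.74, SE 0.20, adjusted p = 0.0250), and Trbv31 averaged 32.4 ± 6.24 and 60.4 ± 15.8 FPKM (0.86, SE 0.21, adjusted p = 0.0181).

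Among all 12166 genes tested as deposited, 14.1% were called higher and 13.7% lower. The 3 of 22 Trbv segments called higher were thus a share near the background. The median log2 difference of the 22 segments was 0.41, with 18 above 0 and 4 below, while the median over all genes was -0.02. For the segments with lower shares, the level of Trbv12-2 (-0.05, adjusted p = 0.890), Trbv26 (-0.17, adjusted p = 0.568), Trbv29 (0.22, adjusted p = 0.361) and Trbv15 (0.13, adjusted p = 0.764) was not called by limma in either direction. With the replicate block, Trbv13-2 (0.54, adjusted p = 0.0316) and Trbv14 (0.65, adjusted p = 0.0352) were also called higher, which brought the count to 5 of 22. That fit called 22.2% of all genes higher, so this share was also near the background.

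Levels of other T-cell genes also varied between the libraries. The geometric mean of Cd3d, Cd3e, Cd3g and Cd247, which encode the signalling chains of the receptor complex, was 118 FPKM in flow-through 1, from 185 to 224 FPKM in flow-through 2 to 4 and between 214 and 226 FPKM in the enriched libraries. After scaling to an equal CD3 level, which moved the median log2 difference of all genes to -0.26, Trbv1 was the 1 Trbv segment of 23 called higher (0.68, SE 0.15, adjusted p = 0.0255), and 4.73% of all genes were. Trbv31 (0.60, adjusted p = 0.103) and Trbv5 (0.47, adjusted p = 0.0947) lost their calls. The call of Trbv1 held in all 14 alternatives (adjusted p from 0.000786 to 0.0257). That of Trbv5 held in 9 of 14 and was lost without flow-through 3, enriched 1 or enriched 3, and that of Trbv31 held in 12 of 14 and was lost without enriched 4.

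The constant regions gave the total β chain signal independently of the V segment. The summed FPKM of Trbc1 and Trbc2 was 693, 1130, 1210 and 1271 in flow-through and 1747, 1563, 1560 and 1574 in enriched libraries, without overlap. The enriched mean was 1611 ± 90.9 FPKM against 1076 ± 262 FPKM, and their ratio without flow-through 1 was 1.34. The Trbv sum was 905, 1798, 1459 and 1610 FPKM against 2076, 1962, 2005 and 1807 FPKM, likewise without overlap, with a ratio of 1.36, and 1.21 without flow-through 1. As deposited, 1993 of 12166 single genes also lay higher in every enriched library than in any flow-through library. Within mice, the Trbv ratio was 2.29 in mouse 1 and 1.09, 1.37 and 1.12 in mice 2, 3 and 4.

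Relative to the CD3 level of the same library, the Trbv sum was 7.72 ± 0.419 in the flow-through fraction and 8.96 ± 0.478 in the enriched fraction, and the Trbc sum was 5.80 ± 0.580 and 7.36 ± 0.258. Both were higher in the enriched library of all 4 mice, with ratios of 1.16 and 1.27. Of the single regions, Trbc2 rose (726 ± 184 to 1089 ± 58.0 FPKM, log2 difference 0.62, SE 0.18, adjusted p = 0.0370 by limma), and Trbc1 did not pass (350 ± 88.1 and 523 ± 68.1 FPKM, 0.61, SE 0.20, adjusted p = 0.0517; 0.0425 with the replicate block). The call of Trbc2 was kept in 7 of 14 alternatives. It was lost without flow-through 2 or without any of the 4 enriched libraries, and under scaling to the CD3 genes (adjusted p = 0.144).

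**Figure D3:**
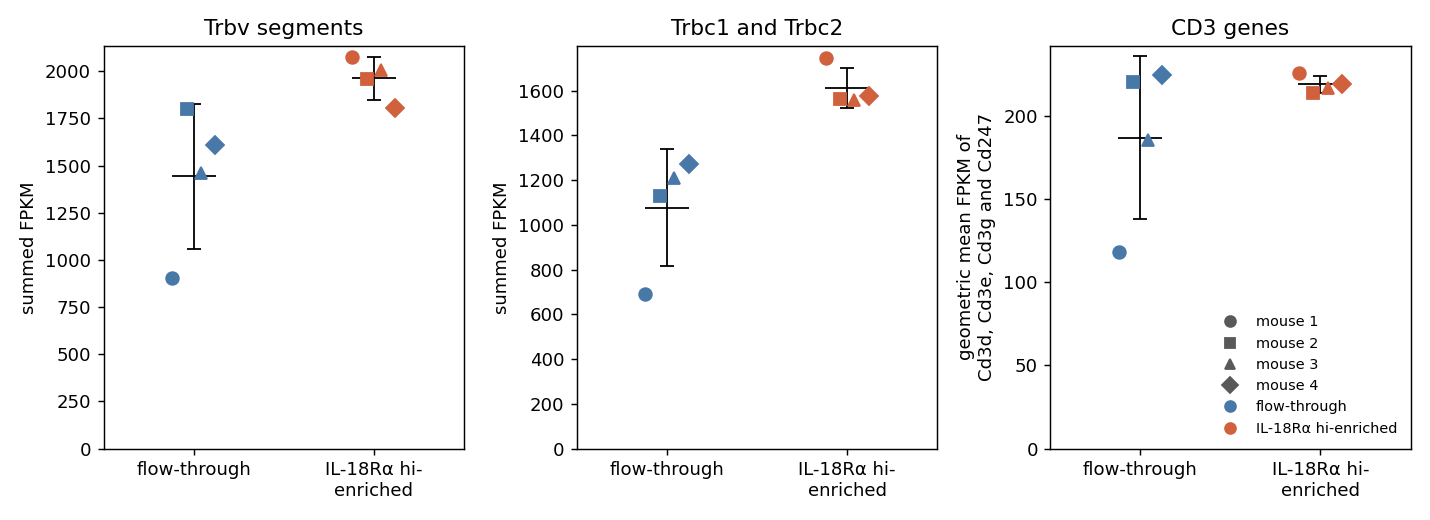
Summed FPKM of the Trbv segments (left) and of Trbc1 and Trbc2 (middle), and geometric mean FPKM of 4 CD3 genes (right), by fraction. Each point is 1 library, marker shapes give the mouse and black marks the mean and SD of 4 libraries; flow-through 1 (circle) is lowest in all 3 panels, and the enriched libraries lie above all flow-through libraries for the Trbv and Trbc sums.

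Which constant region was used did not separate the fractions. Trbc2 made up 67.9%, 63.1%, 70.1% and 68.6% of the Trbc sum in flow-through and 65.8%, 70.3%, 70.1% and 64.2% in enriched libraries. The difference of the means was 0.215 percentage points (exact two-sided permutation p = 0.943, n = 4 against 4), with 2 mice higher and 2 lower. Single mice differed by -4.40 to 7.28 points, and the SD of the within-mouse difference was 5.04 points, so a change of a few points would not have been detectable. The Trbv to Trbc ratio was 1.34 ± 0.171 and 1.22 ± 0.062.

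The whole Trbv profile of each library was compared with that of every other library by the share that would have to move to make the profiles equal. Flow-through libraries of different mice differed by 4.69 to 7.09 percentage points (median 6.42, 6 pairs). Enriched libraries of different mice differed by 8.69 to 15.2 points (median 10.6, 6 pairs), so enriched libraries lay farther from each other than flow-through libraries did, with no overlap between these pairs. The SD over mice was larger in the enriched fraction for 14 of the 19 segments, with a median of 0.473 points in the flow-through fraction and 0.850 points in the enriched fraction. The fractions of the same mouse differed by at least 8.58 points (median 9.41, 4 pairs), against 8.91 to 13.2 points (median 11.5, 12 pairs) for the fractions of different mice. Pairs share libraries and are not independent, so these distances are a description.

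**Figure D4:**
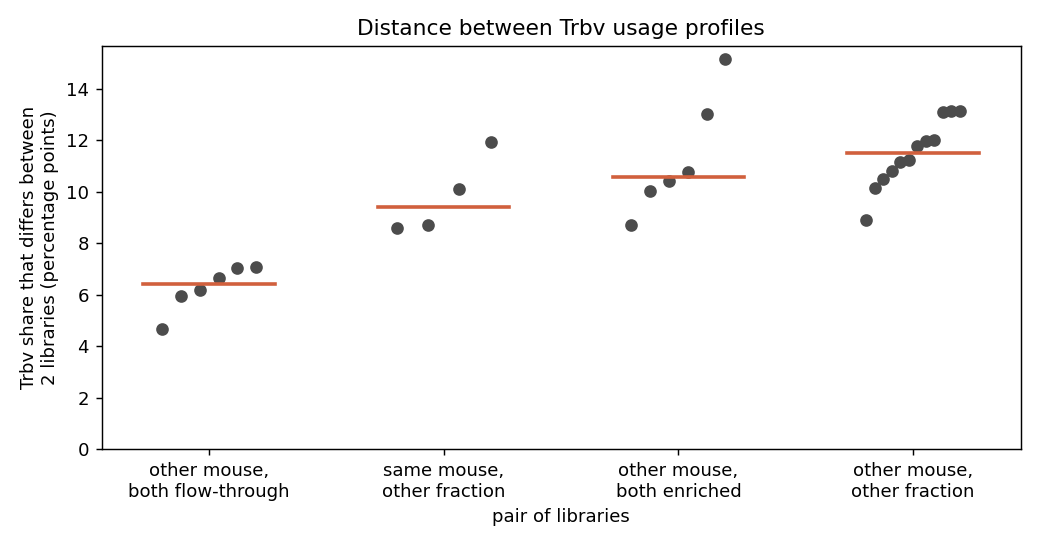
Share that differs between the Trbv profiles of 2 libraries (percentage points) for all 28 pairs of the 8 libraries. Each point is 1 pair and the coloured line is the median; the 6 pairs of flow-through libraries (4.69 to 7.09) lie below all other pairs (8.58 to 15.2).

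Samples with the same number deviated together across all genes (correlation of deviations 0.660, 0.589, 0.308 and 0.471 for numbers 1 to 4). Pairs with different numbers reached 0.412 (flow-through 2 with enriched 4). Over the Trbv shares the correlations within numbers were 0.381, 0.047, 0.013 and 0.321. The highest value, 0.456, was that of flow-through 2 with enriched 3, which have different numbers. These correlations do not settle which libraries share a mouse.

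Trbv1 and Trbv31, which had higher shares, are the outermost V segments of the locus. Trbv1 lies 642 kb upstream of Trbd1, Trbv5 lies 471 kb upstream, and Trbv31 lies 24.5 kb downstream. Trbv26 and Trbv29, with lower shares, are the upstream segments of at least 1% share that lie nearest to Trbd1, at 306 and 262 kb. Across the 18 segments upstream of Trbd1, Spearman's rho between position (from the far end to Trbd1) and the log2 difference in share was -0.60. This is a description across segments, which share the same 8 libraries and a fixed sum. Neighbours could differ, as Trbv12-1 at 420 kb upstream had a log2 difference of -0.08 and Trbv12-2 at 414 kb had one of -0.53.

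**Figure D5:**
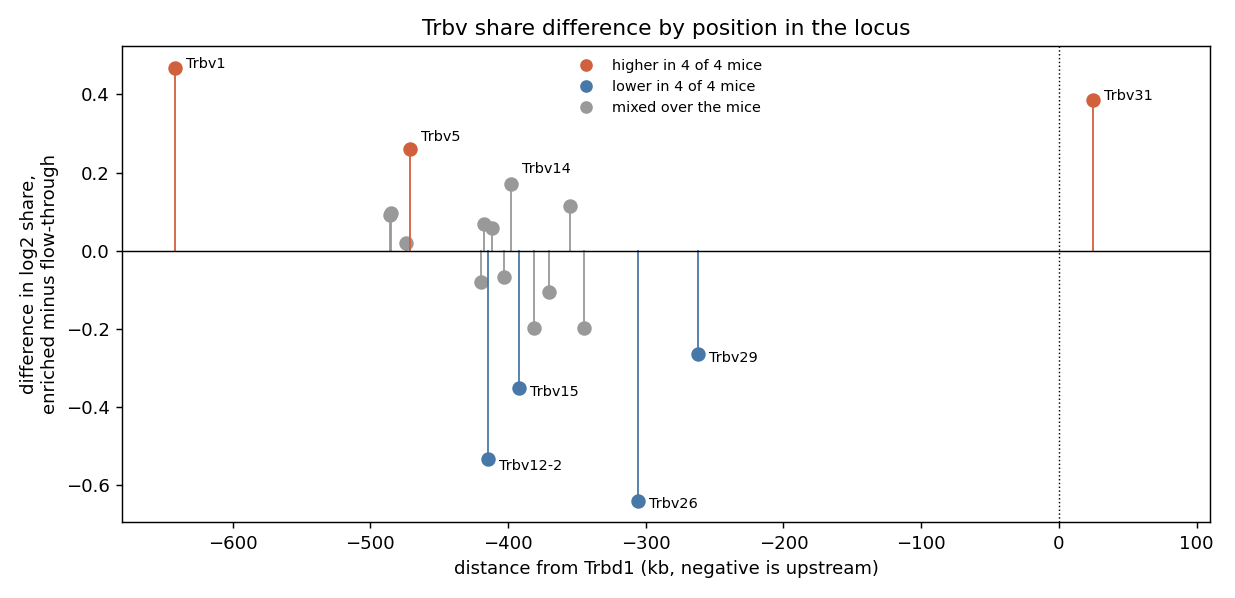
Difference in log2 share between the enriched and the flow-through fraction for the 19 Trbv segments of at least 1% share, by distance from Trbd1 (kb, negative is upstream). Each stem is 1 segment, coloured by its direction over the 4 mice; Trbv1 (0.47) and Trbv31 (0.39) at the ends are above 0, and Trbv26 (-0.64) and Trbv29 (-0.27) are below.

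The genes that work with the β chain were described from lists of symbols. Of the 5 genes of the receptor complex (Cd3d, Cd3e, Cd3g, Cd247 and Trac, the α chain constant region), 0 passed the test as deposited by limma, with a median log2 difference of 0.37. Trac averaged 514 ± 122 and 718 ± 17.8 FPKM (0.52, SE 0.17, adjusted p = 0.0567). Of the 3 coreceptor genes, Cd8a and Cd8b1 did not pass, and Cd4 was called higher (0.662 ± 0.423 and 3.93 ± 2.73 FPKM, 1.46, adjusted p = 0.0168). Cd4 reached the filter of 1 FPKM only through the enriched libraries. Of the recombination genes, Rag1 and Rag2, which cut the DNA at the segments, were at or below 0.182 FPKM in every library. Dntt, which adds bases at the junctions, averaged 2.74 ± 0.956 and 1.62 ± 0.323 FPKM (-0.48, adjusted p = 0.099).

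Markers of CD8+ T cells were high in all libraries. Some genes listed as markers of CD4+ and γδ T cells, NK cells and myeloid cells were called higher in the enriched fraction. For invariant NKT and MAIT cells, the 1 gene called, Zbtb16, entered the test only through that fraction. The counts that follow stand beside the 14.1% of all genes called higher and the 13.7% called lower as deposited. The summed level of 7 CD8+ T-cell genes was 1352 to 2544 FPKM in flow-through and 2585 to 2772 FPKM in enriched libraries, and 0 of 7 were called. Of 2 CD4+ T-cell genes, both were called higher, Cd4 with the limit given above (summed 2.11 to 4.57 FPKM against 16.6 to 22.6 FPKM). Most of this sum was Cd40lg (3.13 ± 0.995 and 15.6 ± 1.44 FPKM). The paper lists Cd40lg among the innate-like T-cell genes raised in IL-18Rα hi-enriched CD8+ T cells, so the sum is no measure of CD4+ T cells. For γδ T cells, which express no αβ receptor, 2 of 5 listed symbols were matched and Trdc was called higher (8.01 ± 3.50 and 17.3 ± 5.91 FPKM, log2 difference 1.06, adjusted p = 0.0485). Sox13, which reached the filter only through the enriched libraries, was not called (0.39, adjusted p = 0.125). For invariant NKT and MAIT cells, Zbtb16, their lineage factor, was called higher (0.405 ± 0.255 and 1.93 ± 0.693 FPKM, adjusted p = 0.0114) and also reached the filter only through the enriched libraries. Trav11 was at 0 in 7 of 8 libraries. Traj18 and Traj33 were listed at 0 in all 8 libraries, but they are J segments, and as for Trbj a value of 0 says nothing of their use. Trav1 of MAIT cells was at 2.28, 7.69, 1.04 and 3.37 FPKM against 8.15, 8.71, 8.03 and 6.64 FPKM (1.15, adjusted p = 0.0529). Of 3 NK-cell genes, Ncr1 and Klrb1c were called higher and Eomes was not (adjusted p = 0.659), with sums of 11.8 to 22.0 against 31.5 to 69.5 FPKM. The paper reports Ncr1 and Klrb1c as receptor genes raised in the IL-18Rα hi-enriched CD8+ T cells themselves. Of 3 myeloid genes, Lyz2 and Itgam were called higher and Csf1r was not (adjusted p = 0.339), with sums of 106 to 371 against 354 to 850 FPKM. Of 4 B-cell genes, 0 were called (19.1 to 52.3 against 25.8 to 63.2 FPKM). Of 3 erythroid genes, 0 were called (146 to 908 against 83.8 to 872 FPKM), and flow-through 1 and enriched 1 were the highest in each fraction. Which cells expressed these genes was not tested, nor was the part of such cells in the differences in Trbv share and level.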

How the data were processed

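Poly(A) RNA of IL-18Rα hi-enriched and flow-through en-T cells was sequenced as 150-base paired ends from stranded libraries. The authors mapped filtered reads to mm10 with TopHat and computed the deposited FPKM values with Cufflinks 2.1.1, with correction for multi-mapping reads and fragment bias. Cufflinks estimates abundance and its FPKM carries no read counts, so the exact depth behind a value is not known and no counting interval was given. Reads that span a V-D-J junction may not map to the genome, and reads shared by near-identical segments are split by the program. The files hold no clonotypes.

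Annotation and sequences were taken from GENCODE release M21 on mm10. Its exon annotation gave the lengths. All 53 segments were matched by gene identifier. Groups and replicate numbers came from the labels, which name no mouse. The paper describes both fractions as taken from the same cells, with 4 mice per group. Fractions with the same number were therefore taken as the same mouse. Deviations from the group means correlated within all 4 numbers (0.308 to 0.660 across genes), while flow-through 2 with enriched 4 reached 0.412.

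The test was limma (version 3.58.1, R 4.3.3) with a mean-variance trend, applied to log2(FPKM + 1) of every gene that averaged 1 FPKM or more. Mice entered the main fit as independent samples, with no block. P-values were adjusted over all genes by the Benjamini-Hochberg method (threshold 0.05, two-sided). A fold change on this scale understates the change of low genes. For shares, each library was first scaled to the same Trbv sum. The script was tested on simulated data. Single values were tested by exact permutation (scipy 1.17.1). The mean ± SD is over 4 mice.

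Segments named with a value in every library were those of at least 1% mean share with a difference of the same sign in 4 of 4 mice, the Pmel-1 segment Trbv14, segments known in invariant NKT or MAIT cells, and Trbc1 and Trbc2. Trbv16, Trbv17, Trbv21 and the other low segments were named after their values were seen. The members and all gene lists were chosen with earlier results of these data known. Results were recomputed with each library left out, with the replicate block, with other pseudocounts, filters, class sums and length weights, and with scaling to CD3 genes or by median ratios. Itgam had more than 1 entry in the table, and the higher was used.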

Additional observations from a re-analysis of the deposited data

Results flagged for a closer look

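Shares of the 19 Trbv segments, the Trbc2 percentage and the Trbv and Trbc sums gave 44 groups of 4 libraries, which were examined for a library far from the others. Chance alone flags about 1 in 20 groups, and 2 were found. The share of Trbv17 in enriched library 2 was 8.69%, against 3.18% to 4.07% in the other enriched libraries. In flow-through library 2, from the same mouse, Trbv17 was at 6.11%, the highest of that fraction. The Trbc sum in enriched library 1 was 1747 FPKM, against 1560 to 1574 FPKM in the other enriched libraries, and the flow-through library of the same mouse had the lowest Trbc sum (693 FPKM).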

How the results depend on the processing

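No Trbj result could be computed under any setting, because all Trbj segments were listed at 0. The number of Trbv segments with a higher share was 0 under every setting except without flow-through 1, where it was 1 (Trbv1), so leaving out 1 library gave a range of 0 to 1. The number with a lower share was 2, and fell to 1 with the class sum without Trbv1 or with a mean of at least 5 FPKM, and to 0 with no filter on low values. Leaving out 1 library gave 0 to 2. With the replicate block the count stayed at 2, but Trbv26 was replaced by Trbv24 beside Trbv21. The cause of these changes was not tested.

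The number of Trbv segments with a higher level was 3, which became 5 with the replicate block, 1 with scaling to the CD3 genes, and 2 to 7 with 1 library left out. The count of 7 came without flow-through 2. The number with a lower level was 0 in all 14 alternatives. With 4 mice, the paired exact sign-flip test gives its smallest p, 0.125, whenever every mouse differs in the same direction. The 7 segments of at least 1% share chosen for that direction had this p by construction, so it adds no information on them. The difference in Trbc2 percentage, 0.215 points, lay between -1.23 and 1.37 with 1 library left out, and was negative without flow-through 2 (-1.23), enriched 2 (-0.692) or enriched 3 (-0.623). With 1 library left out, the log2 difference in share of Trbv13-1 lay between -0.046 and 0.20, and was negative without enriched 1 or enriched 4 (-0.039). That of Trbv13-3 lay between -0.16 and 0.029, and was positive without flow-through 4. Over the limma shares and levels of single segments, 225 of the alternative values kept their direction and side of the threshold, 28 lost significance, 6 gained it, and 3 turned direction. The ratios of the Trbv and Trbc sums relative to the CD3 genes or without flow-through 1, and the exact permutation of single shares, were added after the data had been seen.

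Limits are the 4 mice, FPKM estimates without read counts, the use of V segments without their junctions, and flow-through 1, in which T-cell genes were low.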
